A study of Rattus norvegicus with 13 samples.

Results

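The cytoplasmic actins, a tubulin and the small proteins that bind actin were followed in livers of pregnant Sprague Dawley rats that received 1 of 4 diets. The members were 8 genes, chosen by their log2 signal across the 4 diet groups of these same arrays: Actb, Actg1, Tuba4a, Myl12b, Cfl1, Pfn1, Tpm1 and Tmsb4x. A probe set, a group of short oligonucleotides on the array that together report 1 transcript, was taken when its single gene symbol was one of them. This gave 12 of the 8740 probe sets other than controls and 7 of the 8 genes, since both probe sets for Cfl1 also name Cfl1l1. Because the levels chose the genes, their differences are given as a description, with no p.

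The 13 arrays fell into 4 groups. EtOH-160 (n = 4) held undernourished rats given 12 g ethanol per kg per day at 160 kcal per kg of metabolic weight per day. TEN-160 (n = 3) was the undernourished control, with that energy supply and no ethanol. EtOH-220 (n = 3) was given 12 g ethanol per kg per day at 220 kcal, and TEN-220 (n = 3), the control group, had 220 kcal without ethanol. The sources used here give neither the gestation day nor the number of animals behind each array, so the p-values below measure only the spread between these samples, which may be technical.

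Actin exists as single molecules and as filaments that are built and taken apart all the time, and the filaments under the membrane of a liver cell hold its shape and its bile canaliculi. Profilin, cofilin and thymosin beta 4 decide how many single molecules are ready to join a filament, tropomyosin lies along filaments and guards them, and myosin light chains let myosin pull on them. Alpha and beta tubulin pair up to form microtubules, along which liver cells carry the proteins they secrete.

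The promoters of Actg1 and Tuba4a, the members with the largest differences between energy supplies, are set beside that of Tmsb4x, whose levels overlapped between energy supplies. RefSeq sequences on build GRCr8 were matched by symbol for 7 of the 8 members, all but Actb. The capitals mark CArG boxes, the element that serum response factor binds in actin promoters, and the letters GGGCGG, the GC box bound by Sp1, each searched on both strands. Each line gives the 250 bases before the annotated start, 5′ to 3′ along the gene. The first 2 lie on the minus strand at chr10:106120952-106121201 and chr9:84162585-84162834, and the third on the plus strand at chrX:30761361-30761610.
Actg1: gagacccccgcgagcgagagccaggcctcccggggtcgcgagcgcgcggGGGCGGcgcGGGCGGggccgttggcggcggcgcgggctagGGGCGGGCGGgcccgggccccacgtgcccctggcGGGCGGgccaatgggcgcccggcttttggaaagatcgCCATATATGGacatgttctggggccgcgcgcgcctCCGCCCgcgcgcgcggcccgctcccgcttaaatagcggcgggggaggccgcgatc
Tuba4a: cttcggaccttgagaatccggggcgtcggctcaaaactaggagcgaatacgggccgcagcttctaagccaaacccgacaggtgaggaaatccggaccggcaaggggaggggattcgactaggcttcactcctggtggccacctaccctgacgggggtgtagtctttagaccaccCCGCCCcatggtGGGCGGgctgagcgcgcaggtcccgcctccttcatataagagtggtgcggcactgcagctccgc
Tmsb4x: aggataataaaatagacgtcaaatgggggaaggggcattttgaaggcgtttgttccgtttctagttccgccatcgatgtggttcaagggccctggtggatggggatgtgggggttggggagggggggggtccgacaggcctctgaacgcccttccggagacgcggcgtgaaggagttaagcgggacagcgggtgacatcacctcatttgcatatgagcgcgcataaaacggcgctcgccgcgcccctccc

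A CArG box was taken as CC, 6 letters of A or T, and GG, with no mismatch allowed. Among the 7 promoters, which do not include that of Actb, that of Actg1 was the one with a CArG box. It was read as CCATATATGG on both strands from −90 to −81, counted back from the annotated start. Of 33465 windows of the same length, 1.5% held a CArG box. The Actg1 window also held 6 matches to GGGCGG, of which a pair overlapped each other, and 1 match to CCAAT. Tuba4a, Cfl1, Myl12b and Pfn1 held 2 matches to GGGCGG each, Tpm1 held 1 and Tmsb4x 0, while 30.5% of all windows held at least 1. CCAAT also occurred once in Cfl1 and in Tpm1 (34.0% of all windows), and TATAAA in 0 of the 7 (12.9% of all windows). These matches describe letters in the windows and were not tested for binding.

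Signals are the authors' MAS5 intensities after quantile normalization, in arbitrary units. A change is the log2 mean of 1 group minus that of the other, given with its standard error from the model (SE). The 2%-trimmed mean of the deposited signal was 501 on 12 arrays and 133 on TEN-220 replicate 1. Of the 10 hepatocyte markers, 8 were measured and all 8 were above background in every group, so the arrays carried the labelled tissue. Background was set at a signal of 43.9, from control probe sets for foreign transcripts. The TEN-160 arrays stood apart in a bacterial hybridisation control: the ratio of its 5′ to its 3′ probe set was 0.448 to 0.525 there and 0.125 to 0.210 on the other arrays. Diet and this difference cannot be told apart in the comparisons that use TEN-160.

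The actins were lower at 160 than at 220 kcal, with and without ethanol. Actb encodes cytoplasmic beta-actin. Its signal was 8483, 6437, 7049 and 7220 on the EtOH-160 arrays, against 12653, 13139 and 11867 on the EtOH-220 arrays. Every EtOH-160 array lay below every EtOH-220 array, and the change was −0.79 (SE 0.112), or −42.1%. Without ethanol, Actb had 8455, 9030 and 8011 in TEN-160, against 10376, 11219 and 10320 in TEN-220. These groups did not overlap either, at a change of −0.32 (SE 0.120), which turned to 0.39 with the values as deposited, where TEN-220 replicate 1 is on another scale.

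Actg1 encodes gamma-actin, the other cytoplasmic actin, and it differed more. Its signal was 6162, 4041, 3793 and 4501 in EtOH-160, against 8381, 13980 and 14951 in EtOH-220, a change of −1.41 (SE 0.207), or −62.3%. In TEN-160 it was 3389, 4227 and 4121, against 9407, 9931 and 8147 in TEN-220, a change of −1.23 (SE 0.221), or −57.4%. In both comparisons the arrays at 160 kcal were all below the arrays at 220 kcal. The Actg1 probe set carries the suffix _f_at, which the array's maker used where probes may match several members of a gene family.

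**Figure D1:**
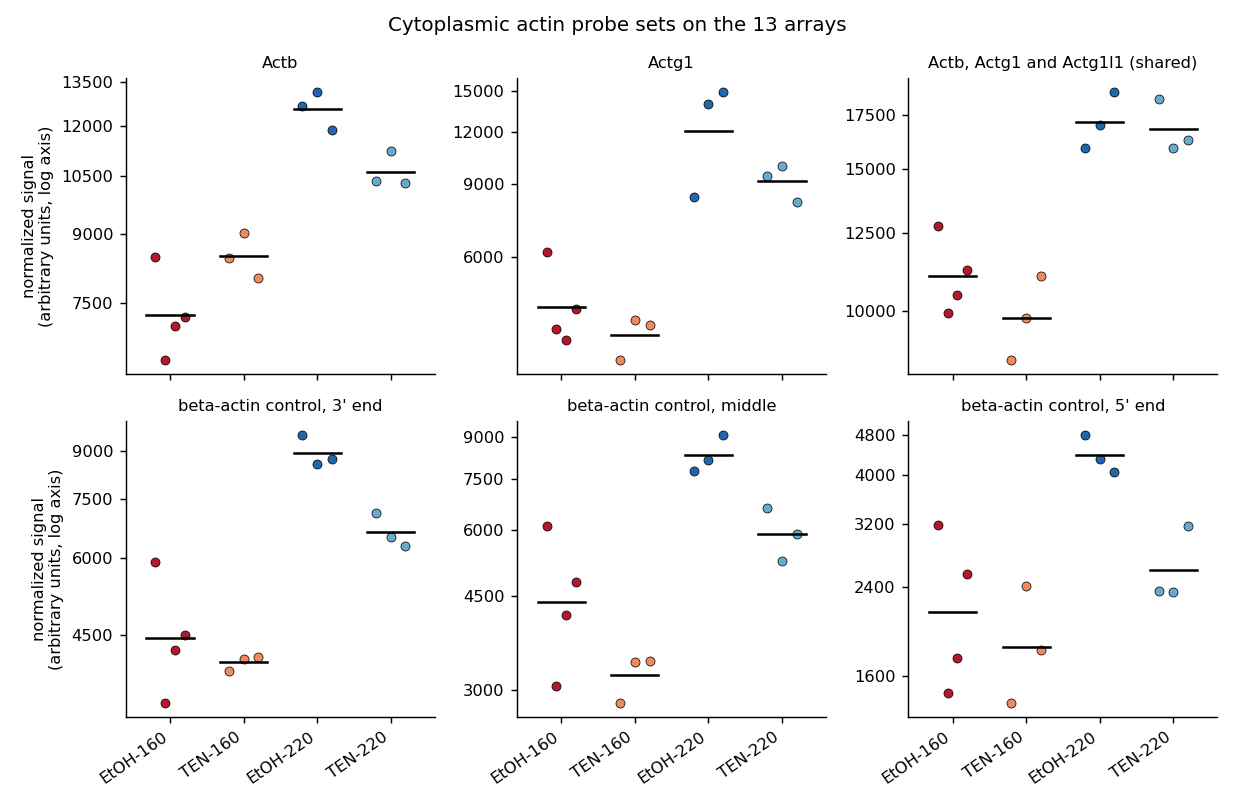
Normalized signal (arbitrary units, log axis) of 6 actin probe sets on each array, with EtOH-160, TEN-160, EtOH-220 and TEN-220 from left to right. Points are arrays and bars geometric means. The group means at 160 kcal lie below those at 220 kcal in every panel, with Actb at 7261, 8489, 12540 and 10630 from left to right.

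Probe sets for actin sequence that fell outside the rule are given beside the members; they measure the same transcripts in the same contrast and are no separate evidence. The probe set shared by Actb, Actg1 and Actg1l1 (rc_AI179012_s_at) had 12723, 9931, 10442 and 11219 in EtOH-160, against 15903, 17007 and 18699 in EtOH-220. The change was −0.64 (SE 0.121), with no overlap. In TEN-160 it had 8671, 9784 and 11028, against 18325, 15903 and 16282 in TEN-220, a change of −0.78 (SE 0.129), again with no overlap. A further shared probe set, rc_AI070848_f_at, had changes of −1.02 (SE 0.244) with ethanol and −0.58 (SE 0.261) without it, and there TEN-160 and TEN-220 overlapped.

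The maker's beta-actin control probe sets cover the 3′ end, the middle and the 5′ end of the transcript. The 3′ set had 5912, 3475, 4256 and 4490 in EtOH-160, against 9551, 8551 and 8709 in EtOH-220. It was 2.01-fold lower in EtOH-160, the middle set 1.89-fold and the 5′ set 2.05-fold, with SE of 0.151, 0.192 and 0.249 on the log2 scale and no overlap between the groups. Between TEN-160 and TEN-220 the changes were −0.71 (SE 0.162), −0.89 (SE 0.205) and −0.51 (SE 0.267), and the 5′ signals overlapped. Over the 13 arrays the 3′ set had Pearson's r of 0.911 with Actb and 0.922 with Actg1, a description that includes the differences between the groups.

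Signs of RNA quality were set beside these changes. The actin 3′/5′ ratio was 1.77 to 2.45 in EtOH-160 and 1.98 to 2.15 in EtOH-220, and 1.70 to 2.78 in TEN-160 and 1.98 to 3.02 in TEN-220, so it overlapped in both. The GAPDH 3′/5′ ratio did not overlap: it was 1.54 to 1.86 in EtOH-160 and 1.02 to 1.46 in EtOH-220, and 1.04 to 1.23 in TEN-160 and 1.51 to 2.56 in TEN-220. It was thus higher at 160 kcal with ethanol and lower at 160 kcal without it. The GAPDH control probe sets for the 3′ end, the middle and the 5′ end had changes of 0.16 (SE 0.133), 0.03 (SE 0.164) and −0.29 (SE 0.133) with ethanol, all with overlap. Without ethanol they were −0.66 (SE 0.143), −0.39 (SE 0.175) and 0.16 (SE 0.142), with no overlap for the 3′ end and the middle.

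Control probe sets for the opposite strand, which should not detect the transcript, were also lower at 160 kcal, with the groups apart in both comparisons for all but the GAPDH 5′ set with ethanol (−0.99, SE 0.488). With ethanol those for beta-actin had changes of −1.99 (SE 0.407) at the 3′ end and −2.21 (SE 0.451) in the middle, and those for GAPDH −0.92 (SE 0.320) and −0.61 (SE 0.182). Without ethanol the beta-actin 3′ and middle sets and the GAPDH 5′ set were below background on every TEN-160 array. The beta-actin 5′ set was below background on every array but 1 of EtOH-220, so its changes are limited by signal. The part of RNA quality and labelling in the actin changes was not tested.

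In the comparison of EtOH-160 with EtOH-220, 15 of 5244 probe sets passed an adjusted p under 0.05 (0.286%), 11 higher (0.21%) and 4 lower (0.0763%). Of the 10 tested member probe sets 0 were called higher and 2 lower, those of Actb and Actg1, and the shared actin probe set was also among the 4 lower ones. The groups overlapped in 7 of the 10 and lay apart in 3, all of them lower, where 10.2% of all probe sets lay apart (5.78% higher and 4.42% lower). All 10 changes were negative, with a median of −0.26 beside 0.00 for all probe sets, but the same values chose the members. Tpm1 gives 3 of these probe sets and Myl12b 2. Of all 3130 genes, each by its brightest probe set, 1681 had a positive change. Both calls were lost with no filter on dim probe sets, with the replicate number as a block, with only these groups in the fit and with values as deposited. The call for Actb was also lost with median-centred values, and that for Actg1 without EtOH-220 replicate 3.

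In TEN-160 against TEN-220, 17.8% of all probe sets were called (7.84% higher and 9.94% lower). Among the members 3 probe sets were called lower, for Actg1, Tuba4a and Tpm1, and 0 higher. The groups lay apart in 6 of 10, 1 higher and 5 lower, where 36.5% of all probe sets lay apart (17.3% higher and 19.2% lower). Without TEN-160 replicate 2, or without any 1 of the TEN-220 arrays, 1 member was called. The Tpm1 call, for M15474cds_s_at, held in 5 of 21 alternatives, and was lost among others with the floor at background, with the replicate block and with only these groups in the fit. Nothing is read from these counts, since the same values chose the members.

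The Actb and Actg1 member probe sets differed less between diets with and without ethanol, and 0 such changes was called. At 220 kcal Actb was 0.24 higher (SE 0.120) in EtOH-220 than in TEN-220, with no overlap, and Actg1 0.40 higher (SE 0.221), with overlap. At 160 kcal Actb was −0.23 (SE 0.112) and Actg1 0.22 (SE 0.207) in EtOH-160 relative to TEN-160, and both overlapped. For the beta-actin control sets EtOH-220 lay above TEN-220 with no overlap. These changes were 0.43 (SE 0.162) at the 3′ end, 0.49 (SE 0.205) in the middle and 0.75 (SE 0.267) at the 5′ end. The last exceeds in size the −0.51 between TEN-160 and TEN-220. The shared rc_AI070848_f_at was 0.58 higher (SE 0.261) with no overlap, and rc_AI179012_s_at 0.03 higher (SE 0.129) with overlap. At 160 kcal these probe sets all overlapped. In order of level, Actb ran from EtOH-220 (geometric mean 12540) through TEN-220 (10630) and TEN-160 (8489) to EtOH-160 (7261), where the last pair overlapped. Actg1 ran from EtOH-220 (12050) through TEN-220 (9130) and EtOH-160 (4541) to TEN-160 (3893), where EtOH-220 overlapped with TEN-220 and EtOH-160 with TEN-160.

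In whole liver, fewer cells of a type and less RNA per cell cannot be told apart. Summed over the 3 red cell markers measured of 9, all above background, the signal was 5520 to 9860 in EtOH-160 and 10660 to 15860 in EtOH-220. Stellate cell markers summed to 8479 to 9471 in TEN-160 and 4799 to 6575 in TEN-220 (12 measured of 14, with Des and Thy1 below background in both and Acta2 in TEN-160). Endothelial markers summed to 1040 to 1528 in TEN-160 and 877 to 935 in TEN-220 (6 measured of 12, all above background). Platelet markers summed to 538 to 765 in TEN-160 and 409 to 505 in TEN-220 (3 measured of 7, Gp5 below background). For energy with ethanol limma called 0 of the 3 red cell markers, of which 1 had a positive change (0.224% of all genes were called). Without ethanol it called 0 of 9 tested stellate and 0 of 2 tested platelet markers, of which 8 and 2 had a positive change. Of the 6 endothelial markers it called 2, both higher, and 4 of the 6 had a positive change. There 16.2% of all genes were called, and 1463 of 3130 had a positive change. The other marker sums overlapped between the energy supplies. The part of these cells in the actin values was not tested.

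Tuba4a encodes an alpha-tubulin. Its signal was 447, 128, 301 and 260 in EtOH-160, against 597, 620 and 499 in EtOH-220, a change of −1.14 (SE 0.369). In TEN-160 it was 459, 202 and 183, against 594, 712 and 600 in TEN-220, a change of −1.30 (SE 0.395). Every array at 160 kcal was below every array at 220 kcal, although the arrays at 160 kcal were widely spread. Between EtOH-220 and TEN-220 the change was −0.15 (SE 0.395) and between EtOH-160 and TEN-160 0.01 (SE 0.369), with overlap in both.

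The 4 other tubulin genes with a tested probe set are given beside it, and limma called 0 of them in any of the 5 comparisons. At an unadjusted limma p under 0.05 Tuba1b passed in 3 comparisons and Tubb5 in 2. Both passed for energy without ethanol and for ethanol at 160 kcal, where 31.5% and 35.6% of all probe sets passed. Tuba1b also passed for ethanol at 220 kcal, where 9.99% of all probe sets passed. Tuba1b, another alpha-tubulin, had 1541 to 1914 in EtOH-160 against 2096 to 2170 in EtOH-220, and 2102 to 2274 in TEN-160 against 2463 to 3093 in TEN-220. Its changes of −0.28 (SE 0.129, limma adjusted p = 0.455) and −0.32 (SE 0.138, adjusted p = 0.134) did not pass, although the groups did not overlap. Tubb5, a beta-tubulin, had changes of −0.22 (SE 0.169, adjusted p = 0.668) with ethanol and −0.50 (SE 0.181, adjusted p = 0.0706) without it. Its dimmer probe set gave −0.35 and −0.05. The changes of Tubb2b were 0.42 (SE 0.249) and 0.34 (SE 0.267), and those of Tubg1, the gamma-tubulin at microtubule ends, 0.24 (SE 0.224) and −0.23 (SE 0.239).

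The muscle actins served as relatives of Actb and Actg1 that hepatocytes are not known for. Acta1, Acta2, Actc1 and Actg2 had 6 probe sets, 0 of them bright enough to be tested. An Acta2 probe set with the suffix _f_at, X06801cds_f_at, had 36.2 to 74.2 in EtOH-160, 11.3 to 20.5 in TEN-160, 80.1 to 152 in EtOH-220 and 37.0 to 107 in TEN-220. The other 2 Acta2 probe sets reached at most 20.5. The Acta1 probe set reached 1285 on 1 array of EtOH-220, against 329 at most in TEN-220, and the lowest arrays of these groups had 12.7 and 7.45.

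Pfn1 encodes profilin, which hands actin monomers to growing filament ends. Its signal was 1598, 1543, 1174 and 1568 in EtOH-160, 1649, 1485 and 2027 in TEN-160, 1388, 1793 and 1763 in EtOH-220, and 1837, 1545 and 1845 in TEN-220. All 4 pairs of groups overlapped, and the changes were −0.17 (SE 0.165) and −0.03 (SE 0.176) for energy with and without ethanol and −0.22 (SE 0.165) and −0.09 (SE 0.176) for ethanol at 160 and 220 kcal.

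Cfl1 encodes cofilin, which severs old filaments. Its brighter shared probe set, which also names Cfl1l1, had 631, 841, 617 and 748 in EtOH-160 against 615, 931 and 887 in EtOH-220, a change of −0.18 (SE 0.186). In TEN-160 it had 629, 604 and 850 against 875, 872 and 893 in TEN-220, a change of −0.36 (SE 0.199). TEN-160 and TEN-220 did not overlap, and the ethanol-fed groups did. For ethanol the changes were 0.04 at 160 kcal and −0.14 at 220 kcal. The dimmer shared probe set overlapped in all comparisons.

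Tmsb4x encodes thymosin beta 4, which holds actin monomers in reserve. Its signal was 4718, 5577, 5068 and 6507 in EtOH-160, against 7127, 5836 and 10512 in TEN-160, a change of −0.48 (SE 0.185). In EtOH-220 it was 5093, 6685 and 6920, against 7419, 7605 and 7825 in TEN-220, a change of −0.30 (SE 0.198). The groups at 220 kcal did not overlap and those at 160 kcal did. Between energy supplies the change was −0.19 (SE 0.185) with ethanol and 0.00 (SE 0.198) without it, with overlap in both.

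Tmsb4x is abundant in blood and immune cells, so the macrophage markers, and counts for the other such lists, are given beside it. The 11 of 15 measured summed to 10980 to 12750 in EtOH-160 against 13400 to 16120 in TEN-160, and to 11220 to 16350 in EtOH-220 against 13300 to 15760 in TEN-220. All 11 were above background except Csf1r in EtOH-220. By group these sums were lower in EtOH-160 than in TEN-160 without overlap, and overlapped at 220 kcal. Between EtOH-160 and TEN-160, 1 of the 10 tested markers was called higher and 3 lower, where 11.6% of all genes were called higher and 9.01% lower. Of the 10, 1 had a positive change, and the median change was −0.47. Of the other lists, limma called lower 1 of 1 tested neutrophil and 1 of 2 tested platelet markers. It called 0 of 7 tested lymphocyte and 0 of 3 tested red cell markers. All 4 measured neutrophil markers were below background in EtOH-160. The part of these cells in the Tmsb4x values was not tested.

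**Figure D2:**
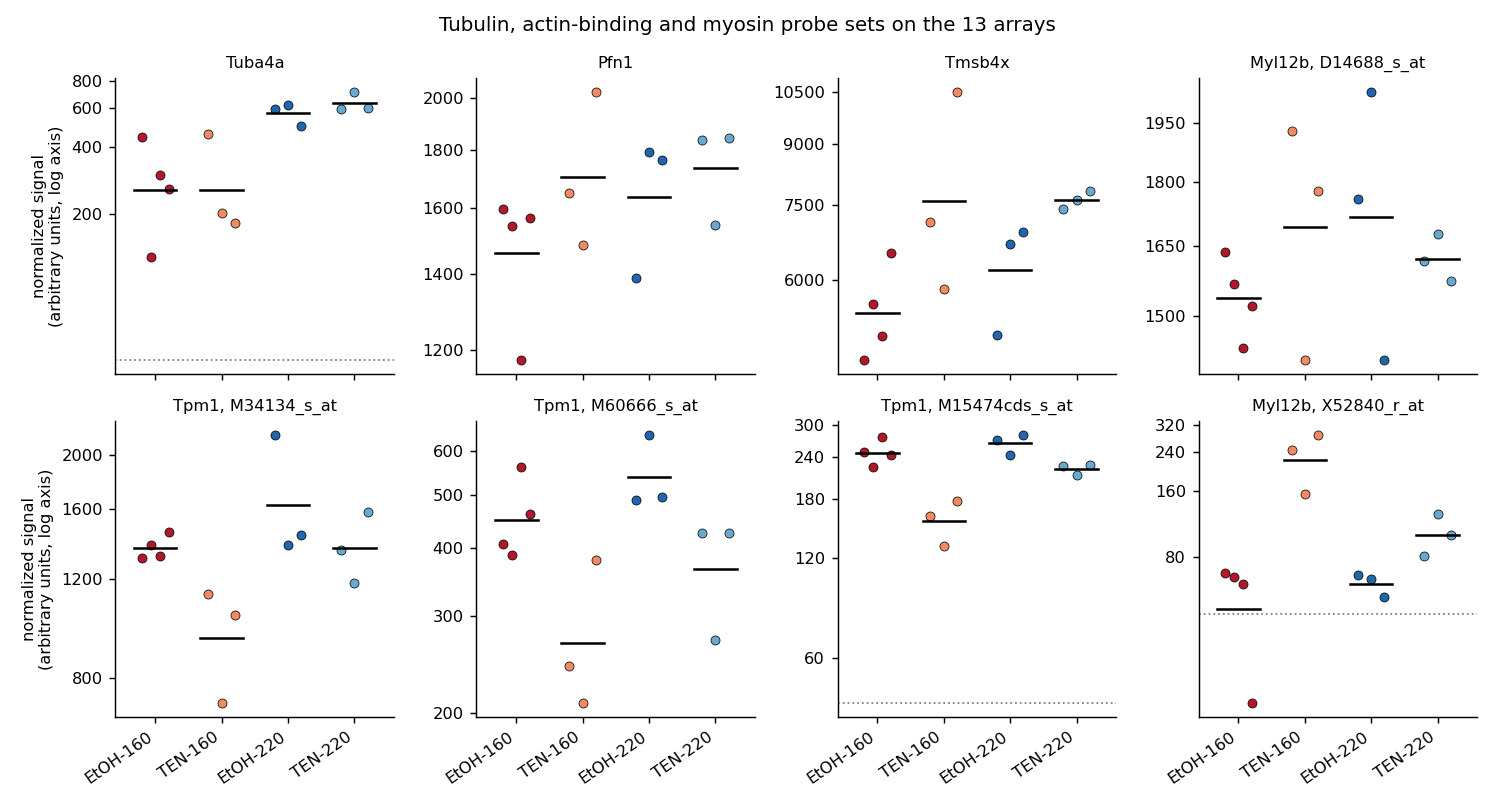
Normalized signal (arbitrary units, log axis) of the 8 other tested probe sets on each array, with EtOH-160, TEN-160, EtOH-220 and TEN-220 from left to right. Points are arrays, bars geometric means and the dotted line the background of 43.9. Tuba4a is lower at 160 kcal in both diets, the Tpm1 sets are lowest in TEN-160, and the dim Myl12b set is highest there.

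Tpm1 encodes the alpha-tropomyosin, which winds along actin filaments and is spliced into many forms. Its 3 tested probe sets had their lowest group level in TEN-160. The brightest, M34134_s_at, had 1311, 1383, 1318 and 1460 in EtOH-160 against 1130, 720.5 and 1035 in TEN-160, a change of 0.53 (SE 0.195) with no overlap. M60666_s_at had 406, 388, 561 and 461 in EtOH-160 against 244, 208 and 380.0 in TEN-160, a change of 0.74 (SE 0.236), also with no overlap. M15474cds_s_at had 249.7, 225, 276 and 244 in EtOH-160 against 160.5, 130.3 and 178 in TEN-160, a change of 0.68 (SE 0.158), again with no overlap.

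Set against TEN-220, the same probe sets had lower group levels in TEN-160. The changes were −0.53 (SE 0.208), −0.45 (SE 0.252) and −0.52 (SE 0.169) for M34134_s_at, M60666_s_at and M15474cds_s_at, and the middle one overlapped. In EtOH-220 they had 2173, 1382 and 1438 for M34134_s_at, 489, 642 and 495 for M60666_s_at, and 270.3, 244 and 280.0 for M15474cds_s_at. The TEN-220 arrays had 1354, 1181 and 1586 for M34134_s_at, 426, 272 and 425 for M60666_s_at, and 227, 212 and 228 for M15474cds_s_at. Ethanol at 220 kcal gave 0.26 (SE 0.208), 0.55 (SE 0.252) and 0.25 (SE 0.169), and energy supply with ethanol −0.25 (SE 0.195), −0.26 (SE 0.236) and −0.09 (SE 0.158). The calls for Tpm1 were in comparisons that use the TEN-160 arrays, which stood apart in the hybridisation control. The other 2 Tpm1 probe sets were too dim to be tested, with geometric means of 31.9 and 46.3, and overlapped in every comparison.

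Myl12b encodes a regulatory light chain of non-muscle myosin, and its 2 probe sets differed from each other. The bright one, D14688_s_at, had 1636, 1566, 1437 and 1522 in EtOH-160, 1929, 1413 and 1779 in TEN-160, 1759, 2035 and 1413 in EtOH-220, and 1616, 1679 and 1574 in TEN-220. All 4 pairs of groups overlapped, and the changes ran from −0.16 (SE 0.152) to 0.08 (SE 0.163).

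The dim one, X52840_r_at, had 67.4, 64.6, 60.3 and 17.1 in EtOH-160 against 245, 155 and 288 in TEN-160. That is a change of −2.27 (SE 0.427), and at least 3.82-fold lower when EtOH-160 replicate 4, which lay below background, is set to it. It had 65.8, 63.3 and 52.3 in EtOH-220 against 80.5, 125 and 101 in TEN-220, a change of −0.74 (SE 0.457) with no overlap. TEN-160 was higher than TEN-220 by 1.15 (SE 0.457), with no overlap. The suffix _r_at marks a probe set for which the maker dropped some of its rules of probe choice. At a mean signal of 84.3 it was also the member probe set closest above the filter of 61.5, and the Tpm1 probe set with 46.3 the closest below it. Over the 13 arrays the 2 Myl12b probe sets had r = 0.35.

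For ethanol at 160 kcal, where 22.3% of all probe sets were called (11.9% higher and 10.4% lower), 2 member probe sets were called higher, both of Tpm1, and 1 lower, the dim one of Myl12b. The groups lay apart in 4 of 10, 3 higher and 1 lower, where 31.1% of all probe sets lay apart (15.8% higher and 15.2% lower). The M60666_s_at call was lost without TEN-160 replicate 1 or 2 and without EtOH-160 replicate 1, 3 or 4. It was also lost with only TEN-220 replicate 1 rescaled, with no filter, with the replicate block, with only these groups in the fit and with values as deposited, and held in 11 of 21 alternatives. For ethanol at 220 kcal, where 0.0191% were called, 0 members were called and the groups lay apart in 5 of 10, 3 higher and 2 lower, where 17.8% of all probe sets lay apart (7.93% higher and 9.9% lower). The difference between the effects of ethanol at 160 and at 220 kcal was called for 0 of the 10, where 7.13% of all probe sets were called.

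**Figure D3:**
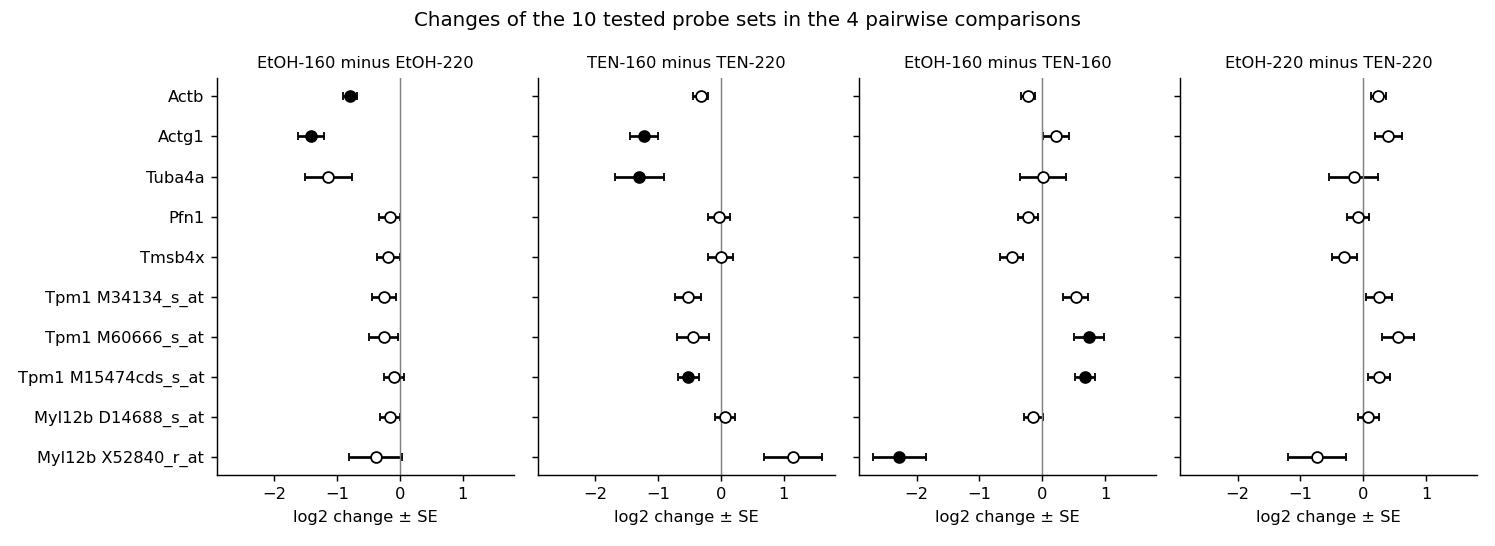
Log2 change with its SE of the 10 tested probe sets in the 4 pairwise comparisons, each titled with both its groups. Filled points passed an adjusted p under 0.05. Actb, Actg1 and Tuba4a lie left of 0 in both comparisons of energy supply, and the Tpm1 sets right of 0 where EtOH-160 is set against TEN-160.

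Across the 13 arrays the members fell into small sets that went up and down together. Actb, Actg1 and Tuba4a had pairwise r of 0.87, 0.80 and 0.73. With group means removed these became 0.46 for Actb with Actg1, 0.68 for Actb with Tuba4a and 0.11 for Actg1 with Tuba4a. Pfn1 and Tmsb4x had r = 0.78, and 0.70 with group means removed. The 3 Tpm1 probe sets had r of 0.70 to 0.86, and 0.27 to 0.63 with group means removed. Their r with the dim Myl12b probe set was −0.71 to −0.54, but 0.04 to 0.25 with group means removed. These r describe arrays that share their group, and no p is given.

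**Figure D4:**
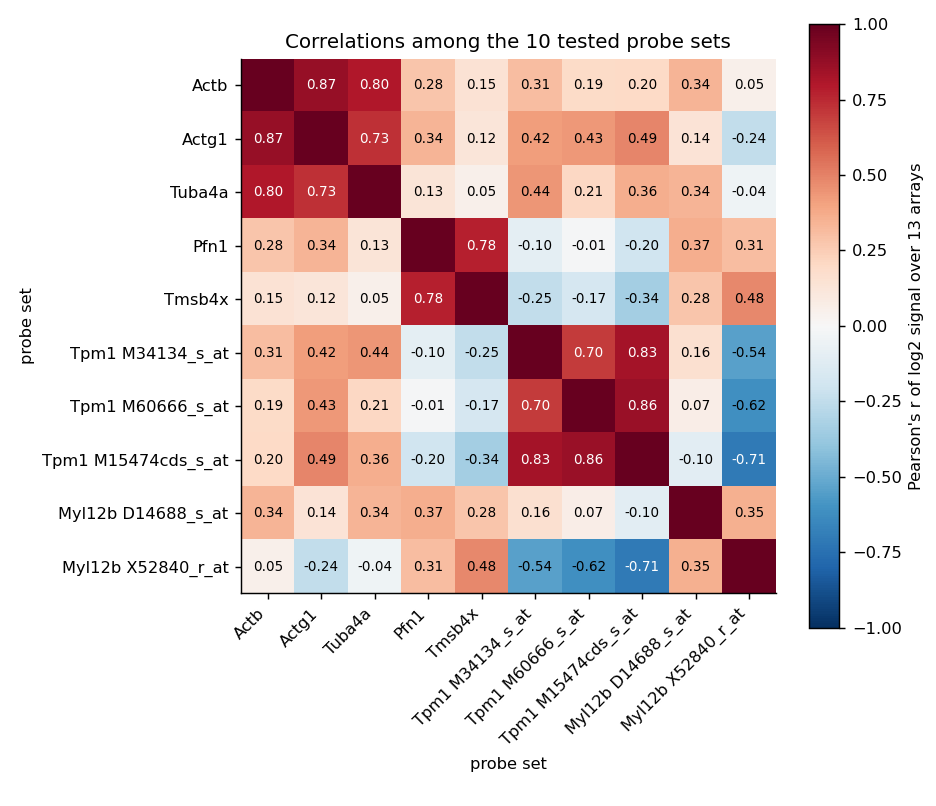
Pearson's r of log2 signal over the 13 arrays for each pair of the 10 tested probe sets, on both axes. Actb, Actg1 and Tuba4a form one block (0.73 to 0.87), Pfn1 and Tmsb4x a pair (0.78) and the Tpm1 sets another block (0.70 to 0.86).

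Among all tested single-gene probe sets of other genes, those most like Actb by r over the 13 arrays were Actg1 (0.873), the ribosome-binding Lrrc59 (0.869) and the Hsp90 co-chaperone Fkbp4 (0.839). Those most like Actg1 were Slc35b1, a carrier of the endoplasmic reticulum membrane (0.896), Actb (0.873) and Cct6a, a chaperonin subunit (0.871). Tuba4a was most like Slc35b1 (0.867), the proteasome subunit Psmd1 (0.857) and the sulfotransferase Sult2a1 (0.855). Tmsb4x was most like the kinase Fyn (0.925), Lgals3bp (0.914) and the complement subunit C1qb (0.879). The bright Myl12b probe set had weaker neighbours in Mrpl13 (0.761), the kinase Lyn (0.760) and Kcne1 (0.735). With group means removed, r was 0.46 to 0.74 for the neighbours of Actb and 0.67 to 0.74 for those of Tuba4a. For those of Actg1 it was 0.72 with Slc35b1, 0.46 with Actb and 0.25 with Cct6a. It was 0.80 to 0.89 for the neighbours of Tmsb4x and 0.74 to 0.75 for those of Myl12b.

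The wider cytoskeleton was read from 9 lists with 219 genes, none of them a member. Of these, 119 were measured and 81 were bright enough to be tested, each by its brightest probe set. In EtOH-160 against EtOH-220, the comparison in which the actins differed most, limma called 0 of the 81, where 0.224% of all 3130 genes were called, and 9 of 81 had an unadjusted p under 0.05 (11.1%, and 11.1% of all probe sets). In EtOH-220 against TEN-220 it also called 0 of 81, where 0.0319% of all genes were called. There 7 had an unadjusted p under 0.05 (8.64%, and 9.99% of all probe sets). Of the 5 tested genes that bind actin monomers or cap filaments, 0 were called in any comparison. Their median change was −0.41 for EtOH-160 against EtOH-220 and −0.06 for TEN-160 against TEN-220, and −0.50 and −0.10 for ethanol at 160 and at 220 kcal.

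Without ethanol, energy supply was called for 13 of the 81 genes (16.0%, and 16.2% of all genes), 5 higher and 8 lower in TEN-160 (6.39% and 9.81% of all genes). Without TEN-220 replicate 1 it was called for 7. The crosslinkers and membrane linkers held 7 of them (3 higher and 4 lower of 21 tested). Pdlim5 and Pdlim3, which tie signalling proteins to actin fibres, rose by 1.21 (SE 0.278, adjusted p = 0.00986) and by at least 1.95-fold (adjusted p = 0.0238), the second with 1 of 3 TEN-220 arrays below background. Rac1, which starts branched actin networks, rose by 0.84 (SE 0.221, adjusted p = 0.0180). Its signal was 816, 575 and 810 in TEN-160 against 401, 409 and 401 in TEN-220. Mapt, the microtubule protein tau, was called at 0.78 (SE 0.247, adjusted p = 0.0437), but its other probe set gave −0.97.

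Of the genes that fell in TEN-160, the 4 of smallest p were Arhgap1, Actn4, Sptan1 and Pak2. Arhgap1, a GTPase-activating protein, was below background on all 3 TEN-160 arrays (43.6, 38.9 and 22.1), against 159, 235 and 155 in TEN-220. It was at least 4.09-fold lower (adjusted p = 0.000746). Sptan1, the alpha-spectrin of the membrane skeleton, had 40.7, 29.8 and 23.3 in TEN-160 against 170, 92.3 and 54.1 in TEN-220, at least 2.15-fold lower (adjusted p = 0.00770). Actn4, an alpha-actinin that crosslinks filaments, fell by 0.96 (SE 0.205, adjusted p = 0.00686), and Pak2, a kinase that Rac1 activates, fell by 0.98 (SE 0.220, adjusted p = 0.00845).

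Under ethanol at 160 kcal, 16 of the 81 genes were called (19.8%, and 20.6% of all genes), 9 higher and 7 lower in EtOH-160 (11.6% and 9.01% of all genes). The crosslinkers and membrane linkers again held 7 (5 higher and 2 lower of 21). Sptan1 had 109, 134, 177 and 135 in EtOH-160, at least 3.11-fold higher than in TEN-160 (adjusted p = 0.000832). Arhgap1 had 182, 66.9, 103 and 112, at least 2.48-fold higher (adjusted p = 0.00354). Ank3, an ankyrin that links spectrin to membrane proteins, had 103, 169, 124 and 161, against 53.0, 32.4 and 44.2 in TEN-160, where 1 of 3 arrays was below background, and was at least 2.91-fold higher (adjusted p = 0.00121). Limk1, the kinase that switches cofilin off, rose by 0.54 (SE 0.136, adjusted p = 0.0133).

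The genes that fell under ethanol at 160 kcal were of several kinds. Rac1 had 235, 301, 349 and 330 in EtOH-160 and fell by 1.27 (SE 0.206, adjusted p = 0.00107). Pdlim5 fell by 1.33 (SE 0.260, adjusted p = 0.00310). Cct3, a subunit of the chaperonin that folds actin and tubulin, fell by 0.90 (SE 0.206, adjusted p = 0.00810). Vim, the intermediate filament of stellate and other connective cells, had 154, 218, 123 and 158 in EtOH-160 against 358, 386 and 264 in TEN-160 and fell by 1.05 (SE 0.247, adjusted p = 0.00900). The stellate cell markers summed to 5989 to 8348 in EtOH-160 against 8479 to 9471 in TEN-160, with 2 of 9 tested called lower (22.2%, and 9.01% of all genes), and their part in the Vim value was not tested.

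The effect of ethanol differed between the energy supplies for 4 of the 81 genes (4.94%, and 6.07% of all genes), 2 with a positive and 2 with a negative difference (4.12% and 1.95% of all genes). It was more positive at 160 kcal for Arhgap1 (at least 3.18-fold as a ratio of folds, adjusted p = 0.0273) and Pak2 (1.13, SE 0.301, adjusted p = 0.0391), and more negative for Pdlim5 (−2.01, SE 0.381, adjusted p = 0.00899) and Rac1 (−1.09, SE 0.302, adjusted p = 0.0452). All these calls rest on the TEN-160 arrays. The comparisons of ethanol at 160 kcal and of energy without ethanol share those arrays, so opposite changes in them are not separate results. The interaction call was lost for Arhgap1 without replicate 1 or 2 of TEN-220 or of EtOH-220, and for Pak2 without any 1 array of TEN-220 or EtOH-160 or replicate 2 or 3 of TEN-160. For Rac1 it was lost without any 1 array of TEN-220 or EtOH-160 or replicate 1 or 3 of EtOH-220 or TEN-160. For energy without ethanol, Rac1 lost its call without replicate 1 or 2 of TEN-220 or 1 or 3 of TEN-160, and Pdlim3 without replicate 1 or 3 of TEN-220 or 2 or 3 of TEN-160. Mapt lost it without replicate 1 or 2 of TEN-220, 3 of EtOH-220, 2 or 3 of TEN-160, or 1 or 3 of EtOH-160. Without TEN-220 replicate 1 or 2, 1 of the 81 genes was called in the interaction.

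**Figure D5:**
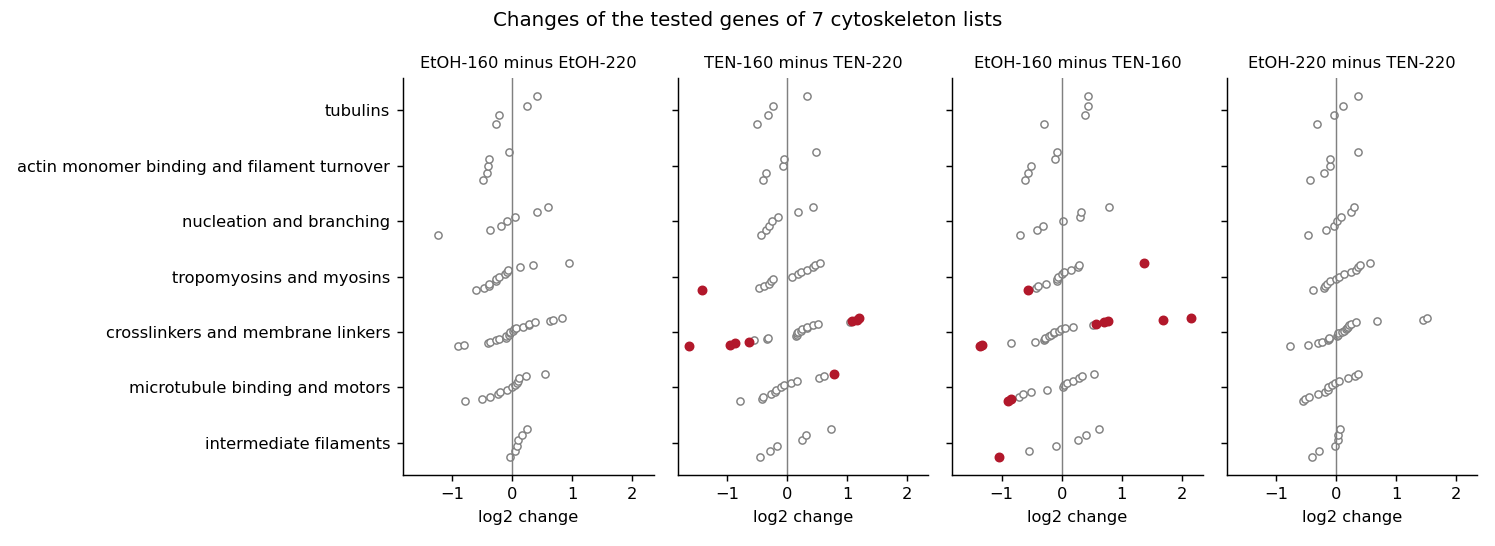
Log2 change of the tested genes of 7 cytoskeleton lists, by list, in the 4 pairwise comparisons. Red points passed an adjusted p under 0.05 and open points did not. Called genes appear in the comparisons that use TEN-160 and in neither of the others.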

How the data were processed

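Hepatic RNA was hybridised to 13 one-colour Affymetrix rat arrays of 8799 probe sets. The authors deposited 1 linear intensity per probe set and array, computed with MAS5 per the submitters' processing notes, which give no version. All 13 columns were quantile normalized over the 8740 probe sets other than controls, because 1 array had not been scaled like the others. Signals below the 10th percentile (9.34) were set to it and taken to log2. The 40% with the lowest mean were left out, which left 5244 (4309 naming 1 gene, of which 4297 matched RefSeq by Entrez ID). Group means were fitted with limma 3.58.1 in R 4.3.3 (lmFit on 4 groups, eBayes with a trend, two-sided). P-values were adjusted by Benjamini-Hochberg separately for 5 comparisons, with calls at an adjusted p under 0.05. Background was the 95th percentile of 19 control probe sets. An "at least" fold sets arrays below background to it. No p is given for members. Precision is limited by the few arrays per group, with a median SE of 0.238 to 0.254 for the pairwise comparisons. Same-numbered arrays of different groups did not deviate together (18 pairs, r −0.112 to 0.0853), and the main fit did not pair samples by number. Low r of this kind cannot exclude a pairing or a shared batch.

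The members and lists were chosen with earlier results of these data known. Named genes are all members, the measured actin and tubulin isoforms, in each comparison the 4 called list genes of smallest p in each direction, and the 3 genes most like each of 5 members by r. The marker lists covered hepatocytes, stellate, endothelial, macrophage, lymphocyte, neutrophil, bile duct, red cell and platelet genes. Alternatives were other normalizations, floors, filters, variance models, a replicate block, fits to the groups compared and leaving out arrays; leaving out the TEN-160 arrays was chosen after seeing the data. The counts of 1 cytoskeleton list are not reported here by themselves. The fit was tested on simulated data. Python 3.11.15 with matplotlib 3.10.9 made the plots.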

Additional observations from a re-analysis of the deposited data

Results flagged for a closer look

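Dixon's test at 95% was run on 24 probe sets of members and named list genes, within EtOH-160 alone. It flags about 1 in 20 by chance, and the other groups were not searched. For 3 member probe sets, 1 array stood far from the others of EtOH-160. They were Pfn1 on EtOH-160 replicate 3, with a signal of 1174, the dim Tpm1 probe set X02412_at on EtOH-160 replicate 2, with 31.5, and the dim Myl12b probe set on EtOH-160 replicate 4, with 17.1. The last 2 lie below the background of 43.9.

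The effect of ethanol differed between energy supplies, by limma's interaction term, for Arhgap1 (2.06), Pak2 (1.13), Pdlim5 (−2.01) and Rac1 (−1.09), with the adjusted p given in the report.

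The array also carries control probe sets for the opposite strand of beta-actin, which belong to no member. Their mean signal in EtOH-220 was 391 for the 3′ end and 306 for the middle, above every TEN-220 array (188, 184 and 110 for the 3′ end, and 132, 115 and 62.2 for the middle). The 3′ set had 123, 90.4, 92.2 and 65.8 on the EtOH-160 arrays and 26.7, 7.02 and 17.8 on the TEN-160 arrays. The opposite-strand GAPDH set for the 3′ end was also lowest there (28.7, 25.5 and 53.9, against 153, 164 and 113 in TEN-220).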

How the results depend on the processing

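With values as deposited, in which TEN-220 replicate 1 is on another scale, list genes called were 2 (ethanol at 220 kcal), 0 (ethanol at 160 kcal), 3 (energy without ethanol) and 1 (interaction), members called were 1, 1 and 0 for ethanol at 160 kcal, energy without and energy with ethanol, and Tpm1 M15474cds_s_at reversed to 0.25 for energy without ethanol. In that comparison the changes of Actb, Tpm1 M34134_s_at and Tpm1 M60666_s_at, which were not called, turned to 0.39, 0.04 and 0.23. Mapt reversed to −0.10 with the mean of its probe sets. Member calls for energy with ethanol (main count 2) fell to 1 with median-centred values and to 0 with no filter, with only the groups compared and with the replicate block. Across 22 alternatives the change of Actb stayed between −0.86 and −0.65 and that of Actg1 between −1.67 and −1.25, with the call kept in 17 each, also without the TEN-160 arrays, which enter that comparison through the variance alone; Actg1 lost it without EtOH-220 replicate 3. List calls were 8 for energy without ethanol with only the groups compared, 1 for ethanol at 220 kcal with the floor at background, and 2 for the interaction with no filter, with no variance trend and with the replicate block. All probe sets called for energy with ethanol were 15, but 0 with no filter, 6 with only the groups compared and 2 with the block, which also fits EtOH-160 replicate 4 exactly. For ethanol at 220 kcal they were 1, and 8, 2, 2, 58 and 5 with the floor at background, median-centred values, the block, deposited values and no TEN-160 arrays, and 0 with no filter, no trend or only the groups compared. Deposited values gave 107, 346 and 65 for ethanol at 160 kcal, energy without ethanol and the interaction. The cause was not tested.

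Leaving out 1 array at a time gave 7 to 13 list calls for energy without ethanol (fewest without TEN-220 replicate 1), 12 to 19 for ethanol at 160 kcal, 1 to 5 for the interaction, and 0 to 0 for the other comparisons. Member calls were 1 to 2 for energy with ethanol, 1 to 3 for energy without it (1 without any TEN-220 array or TEN-160 replicate 2), 2 to 4 for ethanol at 160 kcal and 0 to 0 for ethanol at 220 kcal. Tuba4a lost its call for energy without ethanol without any TEN-220 array and without TEN-160 replicate 2 or 3. Probe sets called over all genes ranged from 4 to 52, 542 to 1058, 880 to 1325, 0 to 13 and 132 to 344 for energy with ethanol, energy without it, ethanol at 160 kcal, ethanol at 220 kcal and the interaction. Pdlim5 kept its call in the interaction in 21 of 21 alternatives, Arhgap1 in 14, Pak2 in 8 and Rac1 in 5. In all, 1433 values were classed as the same, 93 as moved, 71 as lost calls and 2 as reversed. Lost calls were counted in this way for named list genes alone. A member change was the same if it moved by less than its spread within groups, even where its call was lost. An uncalled member change could also turn its sign and be the same, and counts were the same if they changed little. Members near or below background, the dim Tpm1 and Myl12b probe sets, are limited by signal.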
